A study of Bos taurus with 48 samples.

Results

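Gene expression was compared in the intercaruncular endometrium of 12 pregnant dairy cows, 7 of which carried a large embryo and 5 a small embryo. The members were chosen by label alone, as every intercaruncular sample of a pregnant cow with an embryo size, which gave 12 of the 44 samples. A large embryo was longer than 20 cm and heavier than 75 mg, and a small embryo was shorter than 20 cm and lighter than 40 mg. The study took caruncular and intercaruncular endometrium from 22 lactating Holstein-Friesian cows of mixed New Zealand and North American ancestry, slaughtered on day 17 of the reproductive cycle. All 22 cows had been synchronised, the 12 pregnant cows had received a grade 1 blastocyst on day 7, and the other 10 were cyclic. Of the cows with a large embryo 3 were labelled fertile and 4 sub-fertile, and of those with a small embryo 3 were fertile and 2 sub-fertile. Each sample came from 1 cow and was read in Cy5 on a 2-colour oligonucleotide array, with a pool of the study's samples in Cy3 as the reference and no dye swap. The question was whether the endometrium of cows at the same day of pregnancy differed with the size of the embryo it held.

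Around this day the bovine conceptus elongates from a sphere to a filament and its trophoblast secretes interferon tau, the signal by which the cow recognises pregnancy. Interferon tau binds type I interferon receptors and induces a large set of antiviral genes in the endometrium. The intercaruncular endometrium lies between the caruncles, the aglandular sites of later attachment, and holds the uterine glands, whose secretions with transported glucose, amino acids and lipids feed the embryo before it attaches.

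The level of a gene is given throughout as the log2 ratio of the sample to the pooled reference, and a difference is the mean level in cows with a large embryo less that in cows with a small embryo. Of 21475 probes, 14690 were bright enough to test, and a probe passed the test at a Benjamini-Hochberg adjusted p under 0.05 in limma. The arrays lay on 4 slides, of which slides 1, 2 and 12 held both sizes, though unevenly. Slide 1 held 1 large and 3 small, slide 2 held 2 large and 1 small, and slide 12 held 3 large and 1 small. The pregnant cows of slide 12 were all fertile and those of slide 2 all sub-fertile. The main fit had no term for slide, so in it size and slide cannot be fully told apart. Among the 12 samples, large 7 was the only one on slide 10 and in its scan batch. It had 84.0% of spots well above background, against 69.8 to 79.9% in the other 11 samples. It also stood apart on the first principal component (27.1% of the variance), at 61 against -32.3 to 16.9 in the others. The second component (19.7%) separated the sizes, with scores of 2.3 to 29.3 in cows with a large embryo and -34.4 to -11.2 in cows with a small embryo. Of 28 probes for 25 trophoblast genes none was bright enough to test, and 1 was above background in at least 6 of the 12 samples. That probe, for TKDP5, was also above background in all 10 cyclic cows. Its signal was 65 to 372 units in the cyclic cows and 18 to 82 in the 12 pregnant cows. As a bulk tissue, fewer cells of a type and less RNA per cell cannot be told apart in these data.

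Between the sizes, 542 probes passed the test (3.69% of those tested), 230 higher with a large embryo (1.57%) and 312 lower (2.12%). They included 429 named genes, 204 higher and 225 lower. Most differences were moderate. The median difference was 0.63 among the probes that rose and -0.57 among those that fell, 277 reached 1.5-fold and 55 reached 2-fold, while the median over all probes was -0.01. In 310 of the 542 the levels of the groups did not overlap, which held for 492 of all probes tested (3.35%). An unadjusted p under 0.05 was reached by 3169 probes, 1500 higher and 1669 lower.

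The number of probes that passed depended on single cows. With large 7 left out 1882 probes passed, among them all of the 542, and with small 1 left out 34 passed. Leaving out any of small 2, large 1, small 4, large 4, large 5, large 3, small 3 and large 6 gave 50, 53, 67, 144, 206, 222, 277 and 343 probes, in that order. Within slide 12, the cow with a small embryo was small 5, and without the 4 cows of that slide 16 probes passed. The direction held within slides, where 542 of 542 probes on slide 1, 541 on slide 2 and 540 on slide 12 differed in the same direction as over all 12 cows, although these cows had also chosen the probes. With slide as a block 1086 probes passed, of which 651 were higher and 435 lower, and 403 were among the 542. In that fit large 7, alone on its slide, did not enter the size difference. Its count is thus comparable with the 1882 without large 7.

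**Figure D1:**
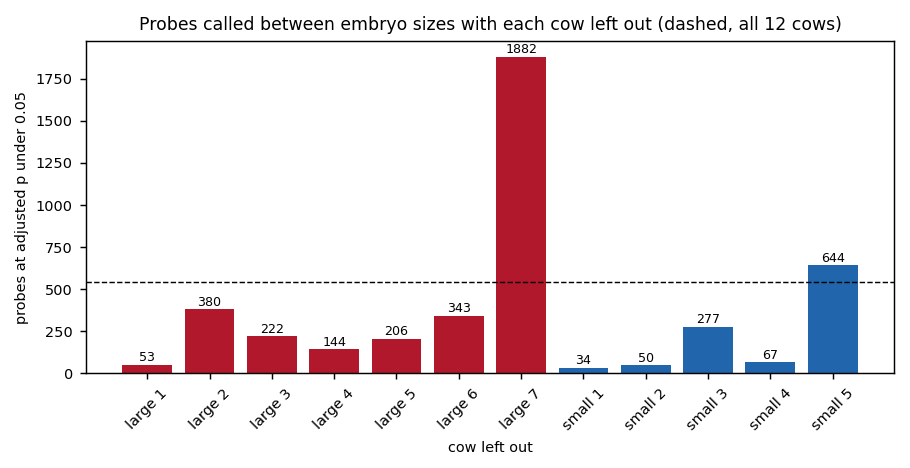
Number of probes at an adjusted p under 0.05 between embryo sizes (vertical axis, starting at 0) when the cow on the horizontal axis was left out; red bars are cows with a large embryo, blue bars cows with a small embryo, and the dashed line is the 542 probes of all 12 cows. The count ran from 34 without small 1 to 1882 without large 7.

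The largest rises among named genes were those of CCL11, DMBT1, BPI and LBP. CCL11 encodes eotaxin, a chemokine that attracts eosinophils. Its levels with a large embryo ran from -1.64 to 2.32 with a median of 1.49, and with a small embryo they were -1.99, -1.06, -2.37, -1.12 and -1.33. Only the lowest cow with a large embryo, large 7, lay within the range of the small group, and the difference was 2.47 ± 0.62 (SE), or 5.56-fold (limma, adjusted p = 0.047). DMBT1, a secreted mucosal protein that binds bacteria, had levels from -0.93 to 3.02 (median -0.16) with a large embryo. The 5 cows with a small embryo were at -2.65, -2.35, -1.60, -1.34 and -2.06. These groups did not overlap, and DMBT1 rose by 2.40 ± 0.61 (adjusted p = 0.049). Either call was lost when most single cows were left out, with CCL11 passing in 1 and DMBT1 in 2 of 12 such fits.

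BPI and LBP, related proteins that bind bacterial lipopolysaccharide, also rose. The levels of BPI were -1.59 to 1.45 with a large embryo (median 1.00), and -1.29, -1.73, -1.39, -1.46 and -0.50 with a small embryo. Large 7 was again the only large-embryo cow within the small group, and the difference was 1.92 ± 0.45 (adjusted p = 0.042). LBP differed by 1.90 ± 0.45 (adjusted p = 0.042), and its small group stood at -1.60, -1.79, -1.68 and -1.22 but at 0.35 in small 5. A second LBP probe gave 0.38 (adjusted p = 0.19). Cyclic cows were below both pregnant groups on average for CCL11 (mean -3.83), BPI (-2.28) and LBP (-3.72), whereas for DMBT1 the cyclic mean of -0.85 lay above that of the cows with a small embryo.

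The other genes among the 15 largest rises came from varied functions. KIF5C, a kinesin motor, ran from 0.09 to 0.94 with a large embryo and stood at -1.01, -1.05, -1.90, -1.55 and 0.12 with a small embryo. It rose by 1.73 ± 0.28 (adjusted p = 0.019) and passed in 11 of 12 fits with a cow left out. With normexp the difference was 1.10, and the other 2 KIF5C probes gave 1.40 and 0.55 without passing (adjusted p = 0.071 and 0.37). PXDN, a peroxidase of basement membranes, rose by 1.70, and ACKR4, a scavenging receptor for chemokines, by 1.64. SLFN11, which the array describes as schlafen 9, belongs to a family of interferon-inducible genes and rose by 1.56, though not with slide as a block (adjusted p = 0.052). PLAC8, a small cysteine-rich protein, rose by 1.39. EPS8L3, a relative of the actin regulator EPS8, rose by 1.34, CRYAB, a small heat shock protein, by 1.20, and the mitotic cyclin CCNB2 by 1.17. TMEM45B, a transmembrane protein, rose on both of its probes, by 1.27 ± 0.23 and by 1.12 ± 0.13 (adjusted p = 0.023 and 0.0073). On the second probe its levels were -0.06 to 0.60 with a large embryo and -0.72, -0.98, -0.62, -0.57 and -0.95 with a small embryo, so that the groups did not overlap.

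**Figure D2:**
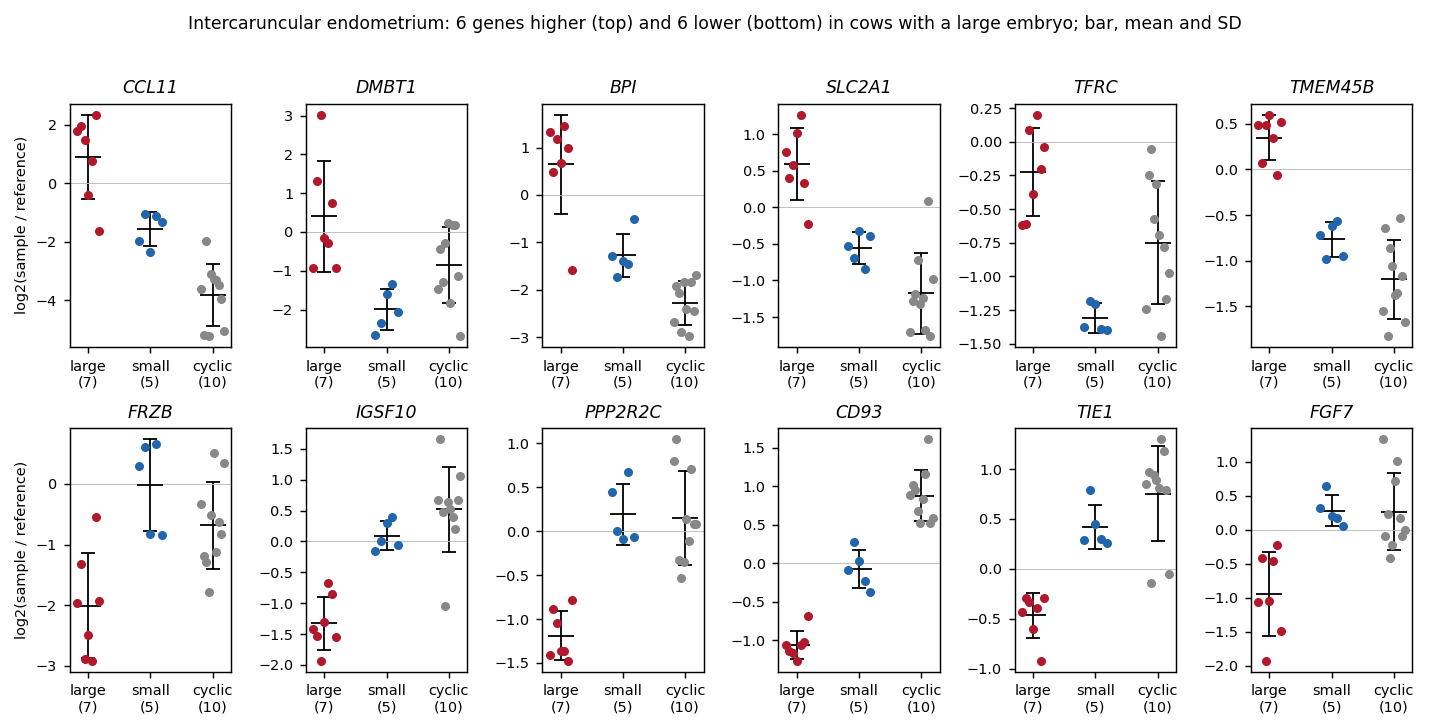
Level of 12 genes in each intercaruncular sample, as the log2 ratio to the pooled reference (vertical axes, each with its own scale), in cows with a large embryo (red, 7), a small embryo (blue, 5) and cyclic cows (grey, 10); black bars are the mean and SD. For TMEM45B and CD93, which have 2 probes, the one with the lower p is drawn. CCL11 and BPI overlap between the sizes through 1 low cow with a large embryo, large 7, whereas TFRC, IGSF10, PPP2R2C and TIE1 do not overlap.

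The interferon-stimulated genes were higher on average with a large embryo, but few passed the test singly. Of 46 tested, 5 rose and none fell (limma), against 1.57% and 1.89% of all genes tested. At an unadjusted p under 0.05, 32 were higher and 0 lower, against 10.8% and 10.9% of all genes. The median difference of the list was 0.70 and all 46 were positive, while the median of all genes was -0.003. The 5 were OAS2, an enzyme that activates RNase L, ZBP1 and IFI16, sensors of nucleic acid, EIF2AK2, a kinase that halts translation, and TRIM21, an antibody receptor that directs proteins to degradation. OAS2 levels were 0.01 to 1.11 with a large embryo (median 0.87), and -0.78, -0.78, -0.92, -0.53 and 0.61 with a small embryo. Of the small group, small 5 alone reached the range of the large group, and OAS2 rose by 1.17 ± 0.27 (adjusted p = 0.038). IFI16 did not overlap, at 0.33 to 1.07 with a large embryo and at 0.01, -0.63, -0.47, -0.13 and 0.15 with a small one. It rose by 0.85 ± 0.17 (adjusted p = 0.025). TRIM21 did not overlap either and rose by 0.54 ± 0.10 (adjusted p = 0.023). ZBP1 rose by 1.14 and EIF2AK2 by 0.65, and both fell short with slide as a block (adjusted p = 0.079 and 0.061).

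The best known interferon-stimulated genes did not pass. ISG15, a ubiquitin-like modifier, differed by 1.00 ± 0.35 (adjusted p = 0.12), with levels of -0.37 to 1.17 with a large embryo and of -0.59, -1.21, -1.26, -0.999 and 0.77 with a small embryo. RSAD2, the antiviral protein viperin, differed by 1.17 ± 0.34 (adjusted p = 0.079), and MX2, a dynamin-like GTPase, by 1.25 ± 0.41 (adjusted p = 0.11). MX1 differed by 0.43 and IFIT1, which binds viral RNA, by 0.92. Of 24 genes of the interferon receptor and its signalling, none passed in limma. At an unadjusted p under 0.05, 7 were higher and 3 lower (10.8% and 10.9% of all genes), and the median was 0.16. With slide as a block the median was 0.04 and 4 were higher and 3 lower at that p. Among them STAT5B, a transcription factor of cytokine signalling, differed by 0.56 (adjusted p = 0.052). JAK1 and TYK2, the kinases on the receptor, differed by -0.34 and -0.27 (0.068 for either).

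The spread of the small group came from 1 cow. Averaged over the 46 genes, the level was 0.17 to 0.78 in cows with a large embryo (median 0.52). In cows with a small embryo it was -0.24, -0.58, -0.71, -0.42 and 0.62, the last in small 5, and in the 10 cyclic cows it was -2.43 to -1.94. All 12 pregnant cows were thus above every cyclic cow, and only large 4 and large 6 were above small 5. Without small 5, 24 of the 46 passed and the median was 0.95. The median difference was 0.99 within slide 1 and 0.65 within slide 2, and -0.06 within slide 12, where small 5 was the only cow with a small embryo. On the other hand, with small 1 left out none of the 46 passed in limma (31 at an unadjusted p under 0.05), and with slide as a block 8 passed.

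**Figure D3:**
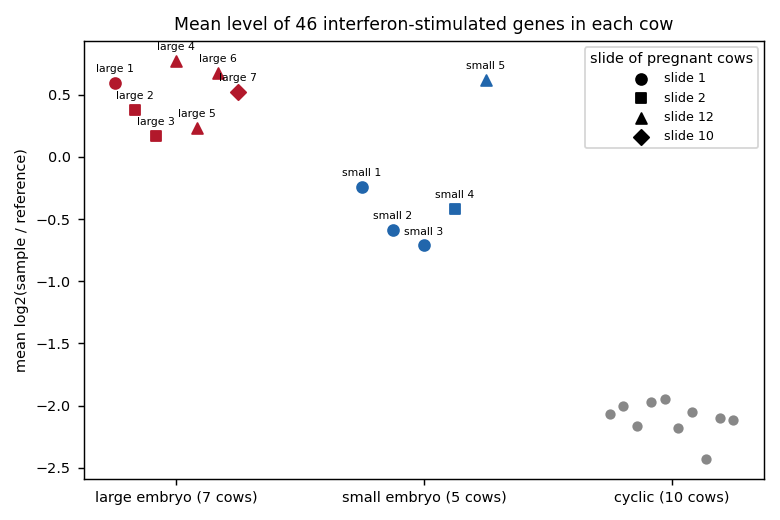
Mean level of the 46 interferon-stimulated genes in each intercaruncular sample (vertical axis, log2 ratio to the pooled reference), for cows with a large embryo (red), a small embryo (blue) and cyclic cows (grey), with the slide of each pregnant cow given by the symbol. Large-embryo cows lie between 0.17 and 0.78, the small-embryo cows between -0.71 and -0.24 apart from small 5 at 0.62, and cyclic cows between -2.43 and -1.94.

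Genes of nutrient supply included several rises. Of 30 glucose and amino acid transporters 4 rose and none fell, against 1.57% and 1.89% of all genes. At an unadjusted p under 0.05, 6 were higher and 5 lower (10.8% and 10.9% of all genes), and the median of the list was 0.02. Among those lower, the glucose transporters SLC2A12 and SLC2A3 differed by -0.50 and -0.49 without passing (limma, adjusted p = 0.060 and 0.077). SLC2A1, the facilitative glucose transporter GLUT1, had levels of -0.22 to 1.27 with a large embryo (median 0.58), and of -0.53, -0.70, -0.32, -0.84 and -0.39 with a small embryo. The groups did not overlap, and it rose by 1.15 ± 0.22, or 2.22-fold (adjusted p = 0.024). SLC5A1, which takes up glucose with sodium, ran from -0.26 to 0.91 with a large embryo and stood at -0.19, -0.68, -0.20, -0.16 and -0.45 with a small embryo. It rose by 0.86 ± 0.19 (adjusted p = 0.035). SLC6A6, the taurine transporter, rose by 0.76 (0.49 with normexp) and SLC36A2, a proton-coupled amino acid transporter, by 0.63, and with slide as a block these did not pass (adjusted p = 0.061 and 0.084). SLC16A1, which carries lactate, rose by 1.19 ± 0.27 (adjusted p = 0.041). In the glycolysis list of 20 genes it was the only rise, and PDK1, the kinase that inhibits pyruvate dehydrogenase, fell by 0.49 on 1 probe, while its other probe gave 0.06 (adjusted p = 0.82).

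Of 38 genes of lipid uptake and metabolism, 2 rose and 2 fell, against 1.57% and 1.89% of all genes. At an unadjusted p under 0.05, 9 were higher and 2 lower, against 10.8% and 10.9% of all genes, and the median was 0.12. INSIG1, which holds back cholesterol synthesis, was at -0.34 to 0.11 with a large embryo and at -0.85, -1.29, -0.62, -0.64 and -1.08 with a small embryo. These groups did not overlap, INSIG1 rose by 0.78 ± 0.13 (adjusted p = 0.019) and the call held in 11 of 12 fits with a cow left out. ELOVL6, an enzyme that lengthens fatty acids, rose by 0.79. ACSL1, which activates fatty acids, fell by 0.62, and RXRA, the nuclear receptor partner of lipid-sensing receptors, by 0.48, with its other probe at -1.09 (adjusted p = 0.055). None of 15 enzymes of arginine and polyamine metabolism passed in limma, and 0 were higher and 1 lower at an unadjusted p under 0.05.

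FRZB, a secreted WNT antagonist, had the largest fall among named genes on the dye-normalised ratios. It had levels of -2.91 to -0.54 with a large embryo (median -1.96), and of 0.30, 0.61, -0.82, 0.66 and -0.85 with a small embryo. The small group was split, with small 3 and small 5 within the range of the large group, and FRZB fell by 1.99 ± 0.43 (adjusted p = 0.034). It was well above background in only 4 of the 7 large-embryo samples, and with normexp background correction the difference was -1.08, smaller than that of IGSF10 (-1.39). With slide as a block FRZB did not pass (adjusted p = 0.068). IGSF10, a secreted protein of the immunoglobulin superfamily, was at -1.93 to -0.68 with a large embryo (median -1.42), and at -0.16, 0.01, 0.30, 0.39 and -0.06 with a small embryo. The groups did not overlap and IGSF10 fell by 1.42 ± 0.20 (adjusted p = 0.010).

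PPP2R2C, a regulatory subunit of protein phosphatase PP2A, was at -1.47 to -0.78 with a large embryo and at 0.44, -0.003, -0.09, 0.68 and -0.06 with a small embryo. It fell by 1.38 ± 0.17 (adjusted p = 0.0079), again without overlap. FGF7, the keratinocyte growth factor that stroma makes for epithelium, ran from -1.92 to -0.22 with a large embryo and stood at 0.33, 0.65, 0.20, 0.17 and 0.05 with a small embryo. It fell by 1.22 ± 0.27 (adjusted p = 0.034), but not with slide as a block (adjusted p = 0.056).

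The other genes among the 15 largest falls were spread over several functions. CNTNAP2, an adhesion protein of the neurexin family, fell by 1.44, GRIA4, a glutamate receptor subunit, by 1.43, and SYT12, a synaptotagmin of vesicle traffic, by 1.12. CNTNAP2, GRIA4, SYT12 and CDH23 were well above background in 5 of the 7 large-embryo samples, and with normexp their differences were -0.78, -0.75, -0.62 and -0.65, where CNTNAP2 did not pass. LGI2, a secreted leucine-rich protein, fell by 1.54 on 5 of the 7 large-embryo samples, since its spots were left out in the other 2. Its difference was -0.87 with normexp, -1.01 with slide as a block and -0.84 in the deposited matrix, where it did not pass. PRSS12, the protease neurotrypsin, fell by 1.43 and ISLR2, a leucine-rich membrane protein, by 1.41. PLXNA2, a semaphorin receptor, fell by 1.27 on 1 probe, and its other probe gave -0.15. COL9A3, a chain of collagen IX, fell by 1.36, CDH23, a cadherin, by 1.22, and SVEP1, a large extracellular adhesion protein, by 1.11. Of these, PRSS12 and COL9A3 did not pass with slide as a block (adjusted p = 0.096 and 0.053).

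Some endothelial genes fell with a large embryo. CD93, a lectin-like receptor of endothelium, fell on both probes, by 1.13 ± 0.23 and by 0.99 ± 0.12 (adjusted p = 0.030 and 0.0079). On the second probe its levels were -1.27 to -0.69 with a large embryo and -0.09, 0.28, 0.03, -0.23 and -0.37 with a small embryo, without overlap. TIE1, an endothelial receptor kinase, was at -0.92 to -0.29 with a large embryo and at 0.29, 0.79, 0.45, 0.30 and 0.26 with a small embryo. It fell by 0.88 ± 0.13 (adjusted p = 0.013), and the groups did not overlap. PECAM1, an adhesion protein of endothelial junctions, fell by 0.93 ± 0.21 (adjusted p = 0.038). Of the 11 endothelial markers these last 2 fell and none rose, against 1.89% and 1.57% of all genes. At an unadjusted p under 0.05, 5 were lower and 0 higher (10.9% and 10.8% of all genes), and the median was -0.39. KDR, the VEGF receptor, differed by 0.10 and did not pass (adjusted p = 0.81). The mean level of the 11 markers was -0.53 to 0.03 with a large embryo and -0.14 to 0.16 with a small one. NRP1, a co-receptor for VEGF and semaphorins, fell by 0.64 (-0.30 with normexp, where it did not pass, and well above background in 4 of the 7 large-embryo samples), but not with slide as a block (adjusted p = 0.090).

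The matrix and stromal lists had medians below 0. Of 48 genes of the extracellular matrix and its proteases 4 fell and none rose, against 1.89% and 1.57% of all genes. At an unadjusted p under 0.05, 13 were lower and 4 higher (10.9% and 10.8% of all genes), and the median was -0.21. LAMA4, a laminin of vessel basement membranes, had levels of -0.59 to -0.21 with a large embryo and of 0.19, -0.18, 0.11, 0.23 and 0.16 with a small embryo. It fell by 0.55 ± 0.09 (adjusted p = 0.021). ELN, which encodes elastin, fell by 0.70 (adjusted p = 0.030), COL3A1, the chain of collagen III, by 0.92 (0.049), and LOX, the enzyme that cross-links collagen and elastin, by 0.46 (0.048). With slide as a block ELN and COL3A1 did not pass (adjusted p = 0.064 and 0.083). The 10 stromal markers had a median of -0.36 with COL3A1 as the only call. The 10 smooth muscle markers had a median of -0.45 with none passing in limma. Of these, 4 were lower at an unadjusted p under 0.05, against 10.9% of all genes. The part of stroma and smooth muscle in the falls of single genes was not tested.

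**Figure D4:**
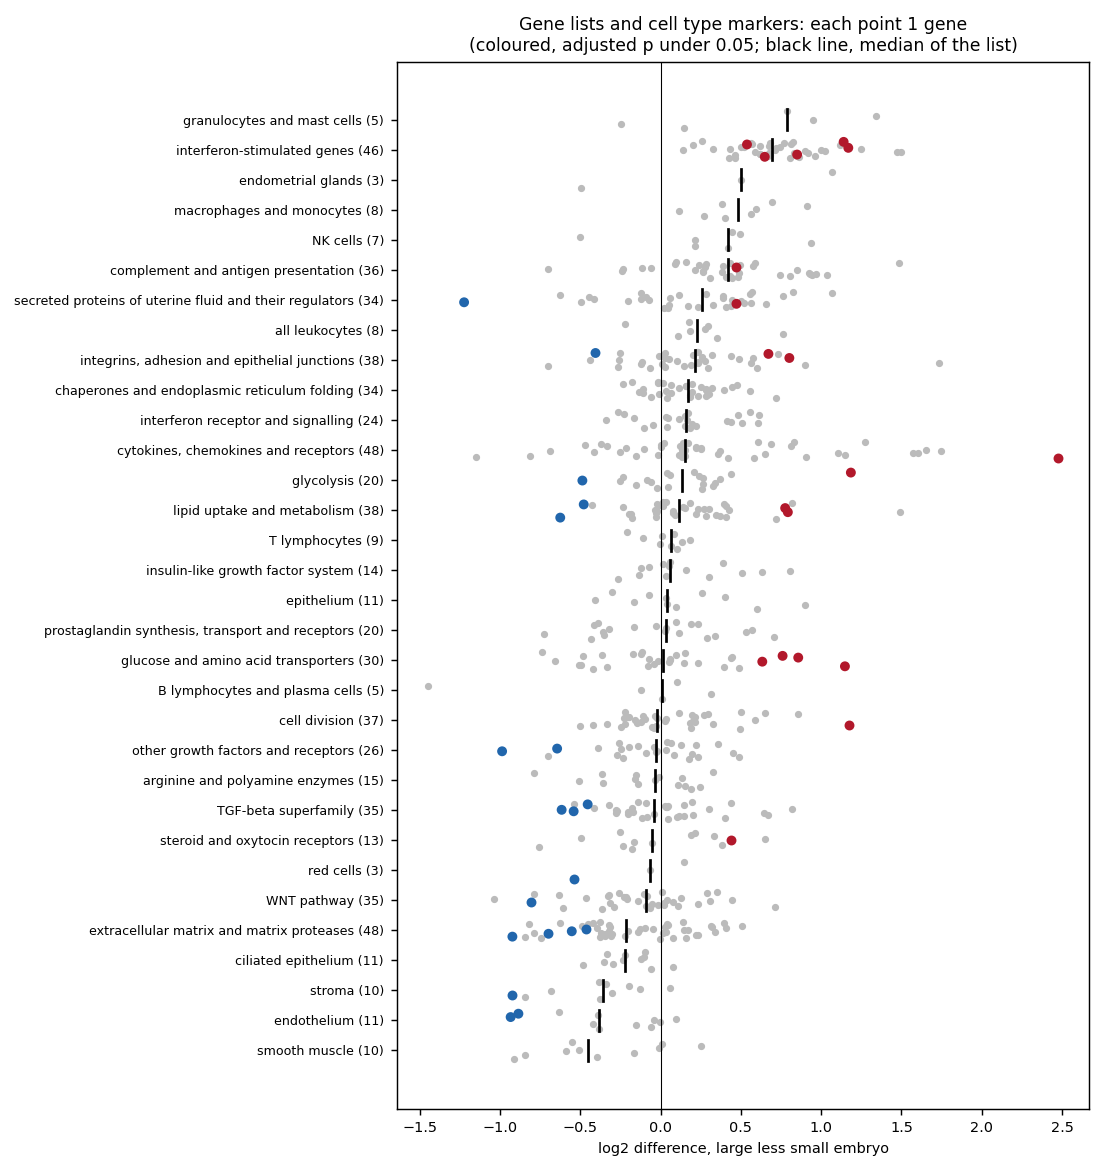
Difference between embryo sizes (horizontal axis, log2, large less small) for every tested gene of each list or set of cell type markers (rows, with the number tested), ordered by the median of the list (black line). Each point is 1 gene, coloured where its adjusted p was under 0.05 (red, higher with a large embryo, and blue, lower). The interferon-stimulated genes lie wholly above 0 with a median of 0.70, and the endothelial, stromal and smooth muscle markers have medians of -0.39, -0.36 and -0.45.

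A few growth factor genes fell, in lists whose medians lay near 0. In the TGF-beta superfamily 3 of 35 fell and none rose (1.89% and 1.57% of all genes), with a median of -0.04. They were LTBP1, which holds latent TGF-beta in the matrix (fell by 0.62), INHA, the inhibin alpha subunit (0.54), and TGFB2, a ligand (0.45). INHA and TGFB2 did not pass with slide as a block (adjusted p = 0.087 and 0.062). FST, the activin-binding protein follistatin, differed by 0.64 (adjusted p = 0.10) and MSTN, myostatin, by 0.82 (0.47). Among 26 other growth factors and receptors FGFR1 fell by 0.99 ± 0.22 (adjusted p = 0.036), with levels of -1.73 to -0.42 with a large embryo against -0.02, 0.25, -0.05, -0.41 and 0.21 with a small one. Of 35 genes of the WNT pathway FZD7, a receptor, fell by 0.80 on 1 probe (adjusted p = 0.043), and its other probe gave -0.27 (0.51). This was the only call, against 1.89% of all genes lower, and 6 were lower and 1 higher at an unadjusted p under 0.05, against 10.9% and 10.8% of all genes. None of 14 genes of the insulin-like growth factor system passed in limma. At an unadjusted p under 0.05, 4 were higher and 0 lower (10.8% and 10.9% of all genes). IGF1 differed by -0.27 (adjusted p = 0.65), IGFBP1 by 0.63 (0.46) and IRS1, an adaptor of the insulin receptor, by 0.39 (0.054).

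None of the steroid, oxytocin and prostaglandin receptors passed the test. ESR1, the estrogen receptor, was at -0.71 to 0.27 with a large embryo (median -0.27), and at 0.71, 1.10, 0.29, 0.72 and -0.06 with a small embryo. The difference of -0.75 ± 0.21 did not pass (adjusted p = 0.065). OXTR, the oxytocin receptor, ran from -3.25 to 1.03 with a large embryo and stood at -2.33, -2.53, -1.40, -0.89 and -3.88 with a small embryo. Its difference of 0.33 ± 0.75 was smaller than its error (adjusted p = 0.85). PGR, the progesterone receptor, differed by 0.19 (adjusted p = 0.58) and PTGS2, the inducible cyclooxygenase, by 0.19 ± 0.50 (0.87). NCOA3, a steroid receptor coactivator, rose by 0.44 (adjusted p = 0.042) as the only call among 13 receptors and cofactors, and not with slide as a block (adjusted p = 0.054). None of 20 genes of prostaglandin synthesis, transport and reception passed in limma, and 3 were higher and 2 lower at an unadjusted p under 0.05, against 10.8% and 10.9% of all genes.

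Of 34 secreted proteins of uterine fluid and their regulators, CTSS, a cathepsin, rose by 0.47 (adjusted p = 0.045) and FGF7 fell, with a median of 0.26. SERPINA14, the uterine serpin of the glands, differed by 1.07 ± 0.34 (adjusted p = 0.098), LTF, lactoferrin, by 0.76 (0.18), and SPP1, osteopontin, by 0.82 ± 0.69 (0.53). In the list of 38 integrins, adhesion and junction genes ITGB3, an integrin subunit, rose by 0.80 ± 0.16 (adjusted p = 0.026). Its levels of 0.18 to 0.98 with a large embryo lay above the -0.01, -0.36, 0.13, -0.27 and -0.33 with a small embryo. TJP1, a scaffold of tight junctions, fell by 0.40 on 1 probe (adjusted p = 0.033), and its other probe gave 0.07 (0.93).

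Other immune lists had medians above 0 and few calls. Of 36 genes of complement and antigen presentation CTSS was the only call, against 1.57% higher and 1.89% lower of all genes. At an unadjusted p under 0.05, 12 were higher and 0 lower (10.8% and 10.9% of all genes), and the median was 0.42. CFB and C1QA, components of the alternative and the classical pathway, differed by 0.85 and 0.80 (adjusted p = 0.12 for either). Of 48 cytokines, chemokines and receptors CCL11 was the only call (2.08%, against 1.57% of all genes higher). In this list 9 were higher and 2 lower at an unadjusted p under 0.05 (10.8% and 10.9% of all genes), and the median was 0.15. CXCL9, CXCL10, CXCL11 and IDO1 differed by 1.75, 1.57, 1.60 and 1.65 without passing (limma, adjusted p = 0.17, 0.18, 0.17 and 0.20). CCL8, a monocyte chemokine, differed by 1.15 (adjusted p = 0.13), with small 5 at 1.00 against -1.32, -1.31, -1.37 and -1.40 in the other cows with a small embryo. No marker of leukocytes passed in limma. At an unadjusted p under 0.05, 4 of 8 macrophage markers, 4 of 7 NK cell markers and 2 of 5 granulocyte and mast cell markers were higher and none lower. Of all genes 10.8% were higher and 10.9% lower at that p. The medians of these 3 sets of markers were 0.48, 0.42 and 0.79. Of 8 markers of all leukocytes 2 were higher and none lower at that p, with a median of 0.23. Without small 1, 2 macrophage and 2 NK cell markers were higher at that p. Second probes of the NK cell markers GZMB and KLRK1 (-0.16 and 0.28) had the opposite sign to the probes used. Under a stricter filter on signal the median of the granulocyte and mast cell markers was 0.35. The mean level of the macrophage markers was -0.55 to 0.66 with a large embryo, lowest in large 7, and -0.58 to 0.28 with a small embryo, highest in small 5. None of 9 T lymphocyte markers or of 5 B lymphocyte and plasma cell markers reached an unadjusted p under 0.05. The medians of these sets were 0.06 and 0.01. Of 37 cell division genes CCNB2 alone rose (2.7%, against 1.57% of all genes). Of 34 chaperones and folding genes none passed in limma. At an unadjusted p under 0.05, 9 of these were higher and 1 lower, against 10.8% and 10.9% of all genes.

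Across the fits that left out 1 cow each, 29 probes passed every time, 9 higher and 20 lower. The following of them were chosen after their values were seen. TFRC, the transferrin receptor for iron uptake, was at -0.62 to 0.20 with a large embryo and at -1.37, -1.18, -1.20, -1.39 and -1.40 with a small embryo. It rose by 1.09 ± 0.15 (adjusted p = 0.0095), with no overlap, but its second probe gave 0.21 (adjusted p = 0.82). MPZL1, a membrane glycoprotein that binds a tyrosine phosphatase, rose by 1.07 ± 0.14 (adjusted p = 0.0079) and by 0.49 on its other probe (0.045), CRAT, carnitine acetyltransferase, by 0.76, and SELENOT, a selenoprotein of the endoplasmic reticulum, by 0.84. FAM20A, a pseudokinase of the secretory pathway, fell by 0.82 ± 0.11 (adjusted p = 0.0079), CCNI, a cyclin, by 0.65, PBX3, a homeobox transcription factor, by 0.68, and CHST15, a sulfotransferase of chondroitin sulfate, by 0.65. TMEM45B, CD93, IGSF10, PPP2R2C and TIE1 were also among the 29. By contrast, 381 of the 542 probes passed in at most 6 of the 12 fits.

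Against the cyclic cows, the genes that differed between sizes had no single order. Of the 230 probes higher with a large embryo, the mean of the small-embryo cows was above the cyclic mean in 133 and below it in 97. Of the 312 lower, it was below the cyclic mean in 148 and above it in 164. The same small-embryo values had also chosen these probes. The cyclic cows lay on slides 3, 4 and 11 apart from cyclic 1 on slide 2, so cyclic state and slide are largely confounded. The order against the cyclic cows was not tested. TFRC, INSIG1 and DMBT1 are examples in which the cows with a small embryo were lower than the cyclic cows on average.

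In the caruncular endometrium of the same 12 cows no probe passed between embryo sizes in limma (0%), and 1014 probes reached an unadjusted p under 0.05. The caruncular arrays lay on slides 5, 6 and 7 in another scan batch, and on slide 10 for large 7 and 1 repeated array. Apart from large 7, tissue thus cannot be told apart from slide and scan batch. With 1 probe a gene, 3.01% of genes were higher and 3.83% lower at that p. Of the 542 intercaruncular probes, 39 had the opposite sign there and 129 had a caruncular unadjusted p under 0.05. Their median caruncular difference was 0.20 for those higher and -0.28 for those lower in intercaruncular tissue. Among the 30 genes of largest change the caruncular difference was 1.67 ± 0.50 for BPI, -1.23 ± 0.42 for CDH23 and -1.20 ± 0.32 for PRSS12 (1.92, -1.22 and -1.43 in intercaruncular tissue). For SYT12 it was -0.05 ± 0.25 and for COL9A3 0.23 ± 0.54. The median caruncular difference of the interferon-stimulated genes was 0.49.

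The test of the difference between the tissues, as an interaction of tissue and size, found no probe (0%), and 411 probes (2.8%) had an unadjusted p under 0.05. With the cow as a block, none passed and 1270 had an unadjusted p under 0.05. The difference between tissues was 1.08 ± 0.37 for SLC5A1, 0.78 ± 0.26 for INSIG1, -1.07 ± 0.38 for SYT12 and -1.59 ± 0.64 for COL9A3, each with an interaction adjusted p of 0.997 in limma. These errors and p-values are from the fit without the cow, which took the tissues of a cow as independent. No gene was therefore shown to respond to embryo size in intercaruncular tissue alone.

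**Figure D5:**
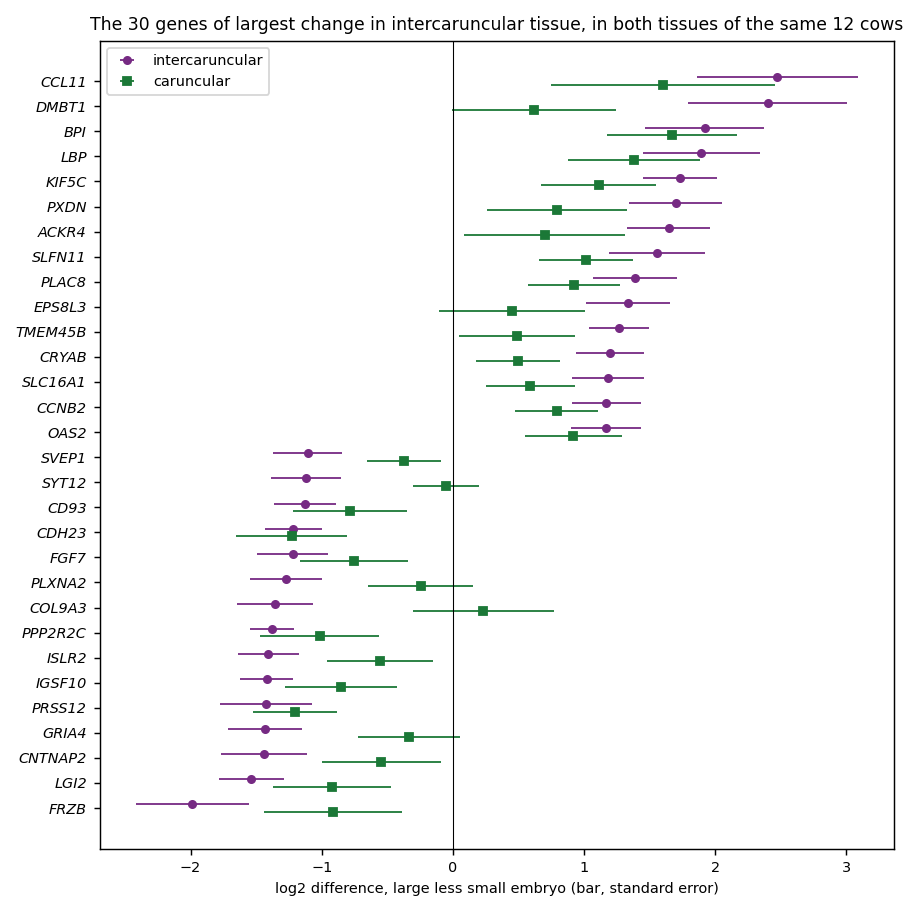
Difference between embryo sizes (horizontal axis, log2, large less small) for the 30 named genes of largest change in intercaruncular tissue, in intercaruncular (purple circles) and caruncular endometrium (green squares) of the same 12 cows; bars are standard errors. The genes were chosen on the intercaruncular values, and all but COL9A3 have the same sign in both tissues.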

How the data were processed

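Endometrial RNA was measured on 48 2-colour Agilent arrays of 44 samples, of which the 12 intercaruncular samples of pregnant cows were compared here. The authors extracted the spot intensities with Agilent Feature Extraction (version 9.5.3.1 per the file headers), which subtracted background, flagged outlying spots and normalised the dyes by LOWESS. The deposited log10 ratios of Cy5 (sample) over Cy3 (pooled reference) were taken to log2, averaged over the spots of a probe without outlying spots, and centred on the array median. The authors' deposited matrix of log2 ratios was an alternative. Testing was limited to probes whose Cy5 signal rose clearly over background and reached 80 units in 22 or more of the 44 samples, after the study's filter. The number of arrays limits the precision, and no spot was saturated on the arrays of pregnant cows.

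Groups came from the labelled embryo size, with the cow as the replicate. Large and small were compared with limma 3.58.1 in R 4.3.3 (lmFit and eBayes, Benjamini-Hochberg adjustment over 14690 probes, called under 0.05), and the caruncular samples of the same cows likewise, where 1 repeated array was averaged. The difference between tissues was an interaction term over the 24 samples. Deviations from the group means correlated between the 2 tissues of a cow by 0.344 to 0.677 in all 12 cows, so a fit with the cow as a block was also made. Symbols came from accessions, gene numbers and descriptions of the array for 17382 of 21475 probes. For lists, 1 probe a gene was used (11512 genes), with no set test. The members and gene lists were chosen with earlier results of these data known. Genes named are the 15 rises and 15 falls of largest change, list members that passed or had the smallest p, a set of well known endometrial genes, and genes said to be chosen later. Some genes of these sets are not reported here. On simulated data with 200 changed probes, 73% of log2 changes of 1 and 98% of those of 2 were recovered.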

Additional observations from a re-analysis of the deposited data

Results flagged for a closer look

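In 17 of 186 groups of values, 93 probes of genes named above in either size group, 1 cow lay far from the rest by Dixon's test, which chance gives in about 1 in 20 groups. Large 7, among the 12 samples the only one on its slide and in its scan batch, was found in 8 of the 17. It was low for BPI (-1.59 against 0.48 in the next cow), EPS8L3 (-0.54 against 0.97), CCNB2 (-0.51 against 0.49), ELOVL6 (-0.59 against 0.14) and SELENOT (-0.14 against 0.43). It was high for ACSL1 (0.12 against -0.30), PECAM1 (-0.32 against -1.15) and the second CD93 probe (-0.69 against -1.03). In each of these large 7 lay toward the cows with a small embryo.

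Small 5 stood toward the cows with a large embryo for LBP (0.35 against -1.22), OAS2 (0.61 against -0.53), CCL8 (1.00 against -1.31) and PECAM1 (-0.82 against -0.27). The remaining cases were LGI2 in large 1 (-0.11 against -1.26), FST in small 1 (0.51 against -0.20), COL3A1 in large 6 (-1.17 against -0.73), STAT5B in large 6 (1.25 against 0.71) and ZBP1 in large 5 (-0.30 against 0.51). Whether these cows differed in biology or in the array was not tested.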

How the results depend on the processing

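Between embryo sizes 542 intercaruncular probes passed, and 34 to 1882 with single cows left out. The count was 319 without the filter on signal, 277 at 1.5-fold or more, 1280 at an adjusted p under 0.10, 190 by the methods' t-test after Benjamini-Hochberg and 3090 at its unadjusted threshold. It was 1086 with slide as a fixed block (60% higher with a large embryo, against 42%), 876 with slide as a random block, and 2844 with array weights (53% higher). Within the scan batch holding both sizes it was 1882 (56% higher), which is the same fit as that without large 7. The fixed slide block also took no size difference from large 7, so its 1086 compares with 1882. The deposited matrix gave 540, normexp with loess 592, a stricter filter 548, fertility class as a covariate 704 and a fit that included the cyclic cows 516. Centring changed nothing, since the array medians were 0. Without the 4 cows of slide 12, an alternative chosen after seeing the data, 16 probes passed, 11 of them among the 542. In caruncular tissue every limma fit gave 0, also with single cows left out, and the methods' t-test gave 851 at its unadjusted threshold. The interaction gave 0 in every fit, also with the cow as a fixed or random replicate block and with single cows left out.

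Of 135 probes of named genes and markers 79 passed. In the deposited matrix 2 of the calls were lost (LGI2 and LOX), with normexp 4 (DMBT1, CNTNAP2, CTSS and NRP1), with fertility class 4, with the cyclic cows 14, with slide as a fixed block 17, without the filter 35, by the methods' t-test 53 and without slide 12 74. Calls were also gained, 7 with fertility class, 12 with slide as a fixed block, 28 without large 7 and 40 with array weights. With slide as a fixed block some lists without a call had calls, such as 7 chaperone and folding genes, 3 interferon signalling genes and 2 insulin-like growth factor genes, all higher. The sign turned only for 2 genes that had not passed. PTGS2 was at -0.03 without large 3, -0.25 without small 5, -0.0574 with fertility class and -0.00413 with array weights, between -0.25 and 0.49 over the cows left out, and OXTR at -0.154 and -0.0885 without large 3 and without small 5 (up to 0.66 with another cow left out) and -0.254 with array weights. The causes were not tested. List medians held in 759 cases and moved in 9, in the steroid receptor and prostaglandin lists, where the sign also turned, and in the interferon signalling, secreted protein and granulocyte lists. Some medians near 0 changed sign though counted as held. Examples are the TGF-beta superfamily (-0.04, and 0.007 without slide 12) and the insulin-like growth factor system (0.06, and -0.02 with slide as a block). Dim probes, such as that of FRZB, were close to background in some of the samples compared, and their differences were smaller with normexp. The simulation recovered 73% of 2-fold changes, so that smaller differences could be missed.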
